A study of Mus musculus with 6 samples.

Results

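The retinoid receptor and transport genes are 9 genes of the 29659 in the deposited table, picked by gene symbol: the retinoic acid receptors Rara, Rarb and Rarg, the retinoid X receptors Rxra and Rxrg, the retinol transporters Stra6 and Stra6l, the binding protein Crabp1 and the synthesis enzyme Aldh1a3. All 9 symbols were found, each on 1 row, and all 9 passed the low-count filter. RNA was sequenced from the lateral ganglionic eminence (LGE), the embryonic forebrain region that produces the projection neurons of the striatum, of C57BL/6 mice at embryonic day 16.5. The Zfhx3-CKO group (3 libraries) has the genotype Dlx5/6-Cre; Zfhx3F/F, in which Cre recombinase acts on floxed copies of Zfhx3, a gene for a zinc-finger and homeodomain transcription factor. The control group (3 libraries) has the genotype Dlx5/6-Cre, so the Cre transgene is shared by all libraries and only cells that express or once expressed it lose the floxed sequence. Dlx5/6-Cre is active in differentiating cells of the ganglionic eminences and spares the cortex and blood vessels. The study asked what the loss of Zfhx3 changes in LGE cells that become striatal projection neurons of the D1 type.

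Retinoic acid is a small signalling molecule made from vitamin A. Retinol arrives bound to a carrier protein and enters cells through membrane receptors such as STRA6. Dehydrogenases then oxidise it in steps to retinoic acid, which binds nuclear receptors of the RAR family, each paired with an RXR, on DNA sequences called retinoic acid response elements. In the mouse, Aldh1a3 in the LGE makes retinoic acid for the developing striatum, and RARβ and RXRγ are receptors of differentiating striatal projection neurons.

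The promoter of Rarb carries a response element that is known as the target of RARs themselves, and it is shown because Rarb is among the genes that changed. The bases below come from RefSeq promoter tables (GRCm38.p6), read 5′ to 3′ on the gene's strand, with a base position counted back from -1 just before the annotated start. Capitals mark core letters that RAR and RXR recognise, on either strand: the hexamer AGGTCA or a variant of it, which is either AGTTCA or GGGTCA or else GGTTCA. Rarb is shown from base -59 to -30 (chr14:16575506-16575535, minus strand), Rxrg from -250 to -1 (chr1:167598112-167598361, plus strand) and Stra6l from -250 to -153 (chr4:45848566-45848663, plus strand).
Rarb: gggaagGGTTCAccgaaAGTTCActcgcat
Rxrg: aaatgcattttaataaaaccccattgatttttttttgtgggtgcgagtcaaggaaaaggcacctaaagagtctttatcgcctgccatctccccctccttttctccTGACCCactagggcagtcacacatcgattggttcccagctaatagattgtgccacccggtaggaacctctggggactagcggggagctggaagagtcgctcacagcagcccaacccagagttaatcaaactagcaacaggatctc
Stra6l: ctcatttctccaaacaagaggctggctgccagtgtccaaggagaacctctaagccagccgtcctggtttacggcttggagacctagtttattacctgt

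In Rarb, a pair of hexamers in the same direction with 5 bases between them runs from base -53 to -37 (chr14:16575513-16575529). A repeat of this kind, with any of the 4 hexamers on either strand, was present in the 250 bases before 29 of 32851 annotated starts (0.0883%), and the exact Rarb repeat before 1. Of the members, 8 had an entry, with 18 starts in all, and only the Rarb start held the repeat. None of the 18 held a repeat with 1 or 2 bases between the hexamers (0.164% and 0.174% of all starts). Rarb has 1 further hexamer upstream of the repeat. The 250 bases before the Rxrg start nearest to the deposited gene have 1 hexamer, at -145, and those before the nearest Rarg start have 1, at -225. Those before the nearest Stra6l, Stra6, Rara, Rxra and Crabp1 starts have none, though 1 other Rara start and 1 other Rxra start have at least 1. Over all starts, 38.6% have at least 1. The Stra6 start used lies 65300 bases and the Rara start 9878 bases from the start of the deposited gene. These matches describe letters only.

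The libraries held 18960574 to 20311799 counts in the Zfhx3-CKO group and 15938590 to 16753355 in the control group. Levels are given as CPM, the count per 1000000 counts of a library, and no member had fewer than 106 counts in any library. Zfhx3 itself was at 98.8, 87.4 and 99.4 CPM in Zfhx3-CKO, against 134, 135 and 101 CPM in the control libraries (log2 fold change -0.37, edgeR adjusted p 0.091); the counts cover the whole gene, floxed part or not. Xist had 55947 to 59631 counts in Zfhx3-CKO and 5 to 9 in control libraries, and 4 Y-linked genes summed to 5 to 8 counts in Zfhx3-CKO and 4939 to 5451 in control libraries, so sex and genotype cannot be told apart in any comparison below. Zfhx3-CKO libraries 1 and 3 stood apart on 11 cortical excitatory neuron markers, whose summed CPM was 179, 46.8 and 277 in Zfhx3-CKO libraries 1, 2 and 3, against 47.3 to 52.3 in the controls. Zfhx3-CKO library 2 stood apart on 9 meningeal fibroblast markers (25.9, 84.5 and 29.7 summed CPM in Zfhx3-CKO libraries 1, 2 and 3, against 29.0 to 35.6 in the controls). No gene of either list was at 0 in all libraries, and 3 of the 9 meningeal genes were at 0 in at least 1. Markers of D1-type projection neurons (9 genes) summed to 267 to 324 CPM in Zfhx3-CKO and 630 to 748 CPM in control libraries. Those of D2-type projection neurons (7 of 8 listed genes found, 6 called higher) summed to 1095 to 1120 CPM in Zfhx3-CKO and 630 to 661 CPM in control libraries. Of the 9 D1 genes 3 were called lower, and without Ebf1 the other 8 summed to 240.3 to 284 CPM in Zfhx3-CKO and 421 to 498.5 CPM in control libraries. Markers of the medial ganglionic eminence and of interneurons (6 genes, 3 called higher) summed to 345 to 505 CPM in Zfhx3-CKO and 281.5 to 314 CPM in control libraries. In such tissue RNA, fewer cells of a type and less RNA per cell cannot be told apart.

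In the Zfhx3-CKO LGE, 4 of the 9 genes fell, none rose, and 5 did not pass the test. The 4 were Stra6l, Rarb, Stra6 and Rxrg. Stra6l fell the most, to 13.8% of the control mean, and the other 3 were at 46.3% to 53.9% of it. Over all 16551 genes tested, 3.49% were called lower and 3.87% higher at an adjusted p under 0.05. At an unadjusted p under 0.05 there were 5 lower members and 1 higher, where 12.1% and 13.5% of all genes were lower and higher. DESeq2 called 5 members lower and 0 higher, where it called 4.44% and 6.01% of all genes with an adjusted p. The median log2 fold change of the 9 was -0.72, against 0.00 over all genes tested. The Zfhx3-CKO libraries lay below all control libraries for 5 of the 9 and above them for 1, as they did for 15.9% and 15.5% of all genes tested.

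**Figure D1:**
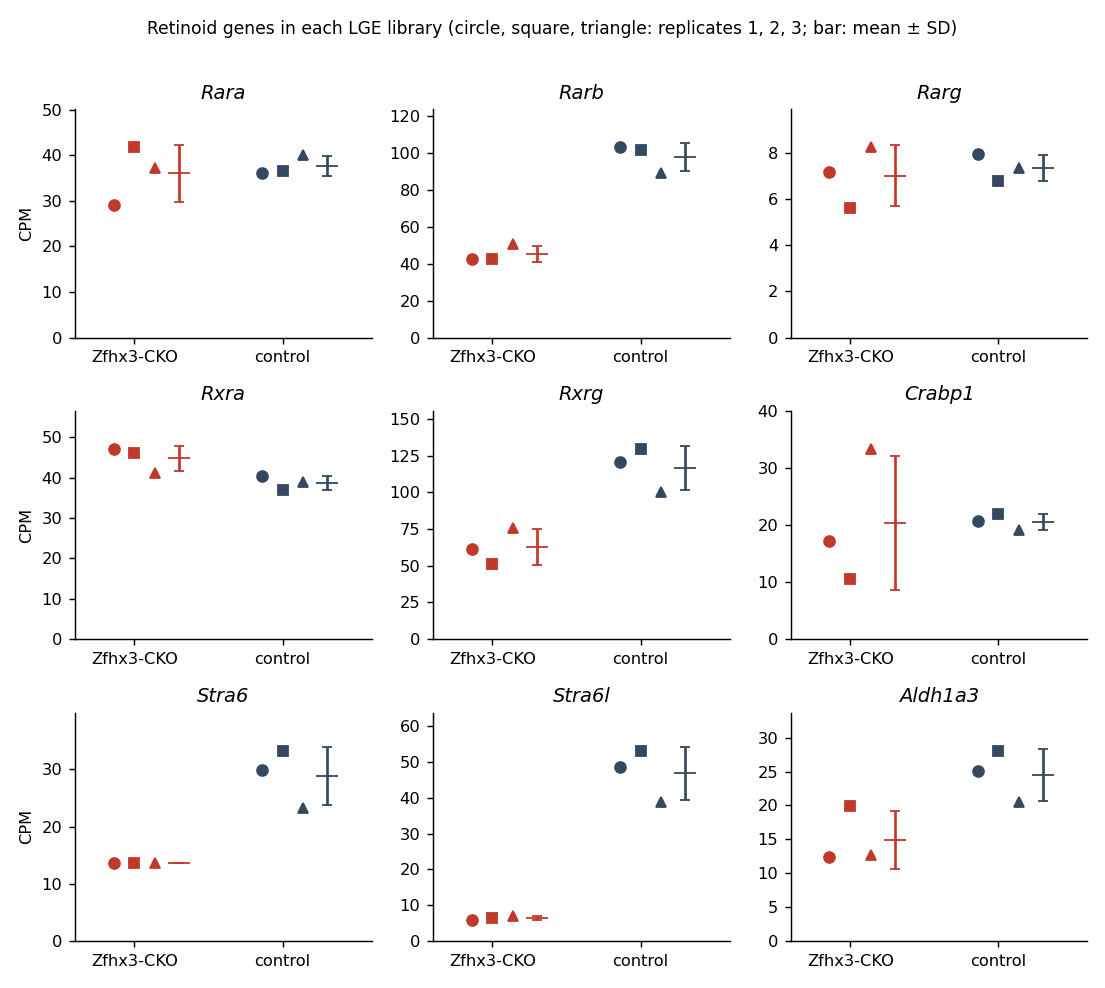
CPM (each axis from 0) of the 9 genes in each library, Zfhx3-CKO left and control right. Circles, squares and triangles are replicates 1, 2 and 3 of a group (not stated to be paired between groups). Bars give the mean ± SD of 3 libraries. Rarb, Rxrg, Stra6, Stra6l and Aldh1a3 have no overlap between the groups, with Zfhx3-CKO lower, and Crabp1 is spread over 10.5 to 33.4 CPM in Zfhx3-CKO libraries.

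Among the receptors that bind retinoic acid, Rarb fell (ENSMUSG00000017491, chromosome 14, 16430842 to 16575472, minus strand, GRCm38). Its level was 42.9, 42.7 and 50.6 CPM in Zfhx3-CKO libraries, against 103, 102 and 89.1 CPM in the control libraries. Every Zfhx3-CKO library was low, and the highest of them was at 51.7% of the control mean; the means were 45.4 ± 4.51 CPM in Zfhx3-CKO and 97.97 ± 7.73 CPM in control LGE (SD, n = 3 each). The log2 fold change was -1.11 (SE 0.10, edgeR quasi-likelihood test with Benjamini-Hochberg adjusted p 0.000622), a 2.16-fold lower level with a 95% interval of -1.33 to -0.89 on the log2 scale. The call held in all 15 alternatives, with log2 fold changes of -1.20 to -1.06. Top2b, a topoisomerase gene on the other strand, shares 1790 exon bases with Rarb in the GENCODE vM21 annotation, although the deposited spans of these genes do not overlap. The deposited values imply a Rarb length of 3034 bases. The library kit does not mark strand, so reads there could not be assigned by strand. Top2b had 11257 to 14161 counts in a library, and the part of its reads in the level of Rarb was not tested. Top2b was at 697 ± 2.84 CPM in Zfhx3-CKO and 712 ± 37.0 CPM in control libraries (SD, n = 3 each; log2 fold change -0.03, edgeR adjusted p 0.8).

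Rara and Rarg, the other RAR genes, did not pass. Rara, a broadly expressed receptor gene (chromosome 11, 98927818 to 98974942), was at 29.2, 41.7 and 37.1 CPM in Zfhx3-CKO libraries, against 36.0, 36.65 and 40.1 CPM in the controls. The groups overlapped, and the Zfhx3-CKO libraries were the more spread. Its log2 fold change was -0.06 (edgeR adjusted p 0.809), with a 95% interval of -0.36 to 0.24. Rarg (chromosome 15, 102234938 to 102257517) was the least abundant receptor, at 7.20, 5.61 and 8.25 CPM in Zfhx3-CKO and 7.95, 6.81 and 7.36 CPM in control libraries. The control values lay within the range of the Zfhx3-CKO values, and the interval of its log2 fold change (-0.07) ran from -0.47 to 0.33, with an edgeR adjusted p of 0.844. The intervals of Rara and Rarg do not reach the size of the fall of Rarb.

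Within the RAR family, Rarb took a smaller share in every Zfhx3-CKO library. Per length, in deposited FPKM (fragments per kilobase, scaled to depth), Rarb made up 62.6%, 56.3% and 61.3% of the summed level of the 3 RAR genes in the Zfhx3-CKO libraries, against 76.9%, 76.9% and 72.8% in the controls. The groups did not overlap, and the mean share was 15.5 percentage points lower in Zfhx3-CKO (exact two-sided permutation p = 0.1, the lowest that 3 against 3 can give). The share uses the same Rarb values as the fold change, so it restates the fall of Rarb and is no separate result. Rarb, as counted with any Top2b reads, remained the most abundant RAR gene in each of the 6 libraries. The summed level was 24.8 ± 2.13 FPKM in Zfhx3-CKO and 42.7 ± 1.85 FPKM in control LGE (SD, n = 3 each). Rara took 33.0% ± 4.59 of it in Zfhx3-CKO and 20.2% ± 2.20 in control LGE, though its own level did not rise (8.22 and 8.61 FPKM).

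**Figure D2:**
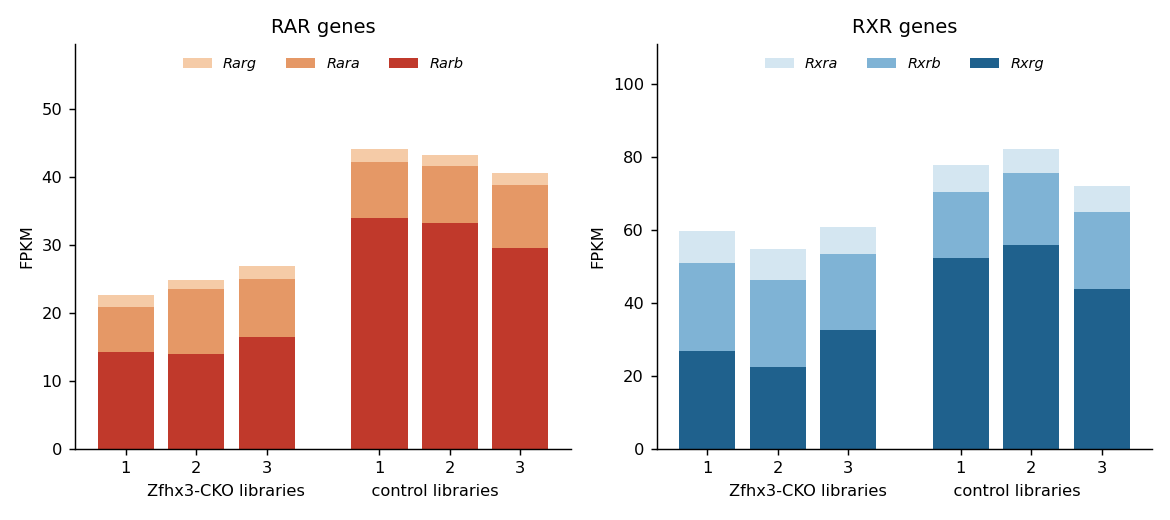
Stacked FPKM (from 0) of the RAR genes (left) and RXR genes (right) in each library, with Zfhx3-CKO libraries left of control libraries in each panel. The Rarb and Rxrg parts are shorter in every Zfhx3-CKO library, and Rarb remains the largest RAR part in all 6 libraries.

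Of the partners of the RARs, Rxrg fell and Rxra did not pass. Rxrg (ENSMUSG00000015843, chromosome 1, 167598384 to 167639623, plus strand), the RXR gene with the most restricted expression, was at 61.4, 51.5 and 75.7 CPM in Zfhx3-CKO libraries, against 120.5, 129 and 100.1 CPM in the controls. The groups did not overlap, and Zfhx3-CKO library 3 came nearest to the controls. The log2 fold change was -0.89 (SE 0.15, edgeR adjusted p 0.0107). The call was lost without control library 1 (adjusted p 0.0731), without control library 2 (0.067), without Zfhx3-CKO library 1 (0.0572) and when replicate numbers entered as a block (0.0622), at log2 fold changes of -0.90 to -0.80. Within Zfhx3-CKO the order of the libraries in Rxrg was that of the cortical excitatory sum, lowest in library 2 and highest in library 3. The D1 marker sum (275, 267 and 324 CPM in libraries 1, 2 and 3) and the D2 marker sum (1097, 1095 and 1120 CPM) also had this order. That of the medial ganglionic eminence and interneuron markers did not (345, 456 and 505 CPM). The part of any of these cells in the level was not tested. Rarg and Crabp1 had the same order, as did Rarb, though its libraries 1 and 2 were all but equal (42.9 and 42.7 CPM). With libraries 1 and 3 left out together, the log2 fold change of Rxrg was -1.18; that fit has 1 Zfhx3-CKO library, which is assumed to vary like the controls.

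Rxra, the RXR gene of many tissues (chromosome 2, 27676440 to 27762957), was at 47.05, 46.0 and 41.2 CPM in Zfhx3-CKO libraries, against 40.3, 37.0 and 38.9 CPM in the controls. It was the 1 member whose Zfhx3-CKO libraries all lay above the controls. The difference did not pass (log2 fold change 0.21, 95% interval 0.01 to 0.40, edgeR adjusted p 0.166). The third RXR gene, Rxrb, is not a member and was at 85.2 ± 6.86 CPM in Zfhx3-CKO and 72.45 ± 5.39 CPM in control LGE (SD, n = 3 each; log2 fold change 0.23, edgeR adjusted p 0.136). Rxrg made up 45.0%, 40.8% and 53.7% of the summed FPKM of the 3 RXR genes in Zfhx3-CKO libraries, against 67.3%, 68.1% and 60.8% in controls. The groups did not overlap, and the mean difference was -18.9 percentage points (exact two-sided permutation p = 0.1). This share uses the Rxrg values already given and is no separate result. Rxrb had a larger share than Rxrg in Zfhx3-CKO library 2 (43.9% and 40.8%), and Rxrg the larger in the other 5 libraries.

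Both genes of retinol entry fell. Stra6l (ENSMUSG00000028327, chromosome 4, 45848664 to 45887008, plus strand) encodes RBPR2, a receptor for the retinol carrier RBP4 that is known from mouse liver and intestine. It had 120, 123 and 136 counts in the Zfhx3-CKO libraries, against 813, 842 and 647 in the smaller control libraries. Scaled to depth these were 5.88, 6.51 and 6.97 CPM in Zfhx3-CKO, against 48.6, 53.1 and 38.7 CPM in control LGE. The groups lay far apart: the highest Zfhx3-CKO library was at 14.9% of the control mean. The means were 6.46 ± 0.548 CPM in Zfhx3-CKO and 46.8 ± 7.35 CPM in control LGE (SD, n = 3 each). The log2 fold change of -2.86 (SE 0.15, edgeR adjusted p 3.69e-05) is a 7.25-fold lower level, and by its unadjusted p Stra6l was number 10 of the 16551 genes tested. It held in all 15 alternatives. On log2(FPKM + 1), where the added 1 is large beside its level, the log2 fold change was -1.81. The authors' deposited table gives a log2 fold change of -2.50 and marks it as significant, as it does Rarb (-1.03). The authors' deposited table does not mark Stra6, Rxrg and Aldh1a3, but gives them adjusted p of 4.01e-09, 4.70e-07 and 0.00852. Their log2 fold changes there are -0.94, -0.79 and -0.58. It marks 122 of its 29659 genes.

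Stra6 (ENSMUSG00000032327, chromosome 9, 58063788 to 58153996, plus strand), the gene of the retinol transporter of the blood-tissue barriers, was at 13.7, 13.7 and 13.6 CPM in Zfhx3-CKO libraries, against 29.9, 33.2 and 23.2 CPM in the controls. The Zfhx3-CKO libraries were all but equal and all low, and control library 3 was the lowest control. That library was also the lowest control for Rarb, Rxrg, Stra6l, Aldh1a3 and Crabp1, but not for Rara, Rarg and Rxra. The means of Stra6 were 13.7 ± 0.0186 CPM in Zfhx3-CKO and 28.8 ± 5.095 CPM in control LGE (SD, n = 3 each). Counts of 258 to 279 in the Zfhx3-CKO libraries carry more sampling noise than their SD, which does not measure how alike the tissues were. The log2 fold change was -1.07 (SE 0.14, 95% interval -1.40 to -0.75, edgeR adjusted p 0.0044). It held in all 15 alternatives, with an adjusted p of at most 0.0361, without control library 1. Stra6 is also a gene of endothelial and meningeal barriers. The 10 endothelial and pericyte markers summed to 313, 325 and 401 CPM in Zfhx3-CKO libraries and 299 to 313 CPM in the controls. The meningeal sum was 84.5 CPM in Zfhx3-CKO library 2 and 25.9 and 29.7 CPM in libraries 1 and 3. The part of these cells in the Stra6 level was not tested.

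**Figure D3:**
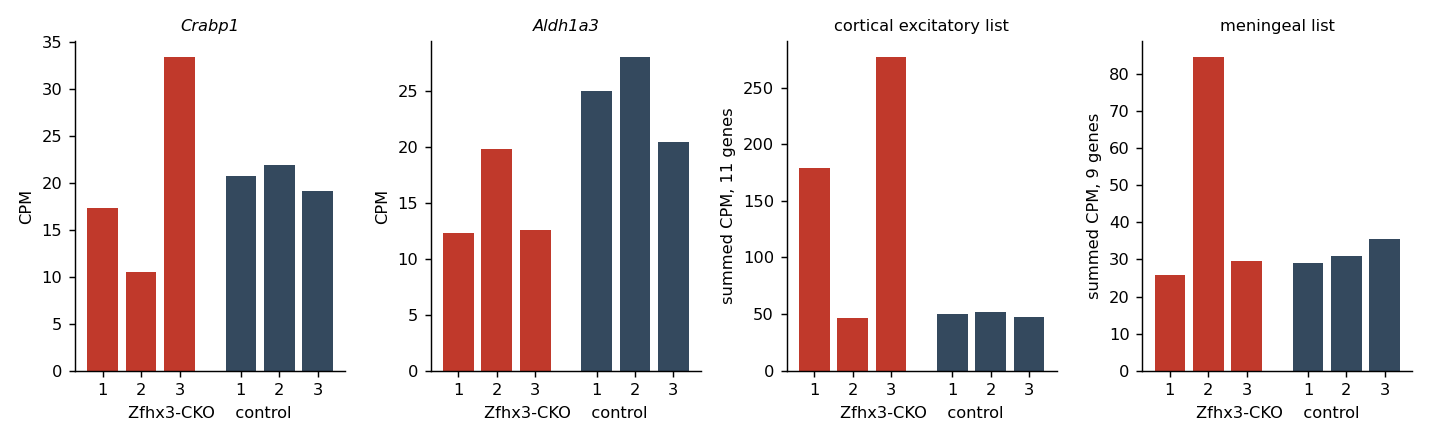
CPM of Crabp1 and Aldh1a3 and the summed CPM of cortical excitatory and meningeal marker lists (axes from 0) in each library, Zfhx3-CKO in red on the left and control in dark grey on the right of each panel. Crabp1 and the cortical sum are lowest in library 2 and highest in library 3 of the Zfhx3-CKO group; Aldh1a3 and the meningeal sum are highest in its library 2.

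Aldh1a3, which encodes retinaldehyde dehydrogenase 3 (ENSMUSG00000015134, chromosome 7, 66390890 to 66427517, minus strand), did not pass. It was at 12.35, 19.9 and 12.6 CPM in Zfhx3-CKO libraries, against 25.0, 28.1 and 20.5 CPM in the controls. The groups did not overlap, but Zfhx3-CKO library 2 came close to control library 3. The log2 fold change was -0.72 (SE 0.20, 95% interval -1.18 to -0.25, edgeR adjusted p 0.0691). Without Zfhx3-CKO library 2 it was called lower (-0.97, adjusted p 0.00747), as it was by DESeq2 (-0.71, adjusted p 0.0101) and with no low-count filter (-0.71, adjusted p 0.0122). With libraries 1 and 3 left out it was at -0.30, in a fit whose spread comes from the controls alone. Library 2 is also the one with the high meningeal sum, and its cortical sum was near the controls (46.8 CPM against 47.3 to 52.3). The summed CPM of 9 LGE progenitor markers (2 called higher) was highest in that library too, at 3504. It was 3279 and 2584 in Zfhx3-CKO libraries 1 and 3, and 2431 to 2808 in the controls. The part of these cells in the level was not tested. The other retinaldehyde dehydrogenase genes were scarce. Aldh1a2, a gene of the meninges, was listed at 0 in Zfhx3-CKO libraries 1 and 3 and at 2.54 CPM in library 2, against 0.0598 to 0.631 CPM in the controls, and Aldh1a1 reached at most 0.265 CPM.

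Crabp1, which encodes a cytosolic protein that holds retinoic acid (ENSMUSG00000032291, chromosome 9, 54764748 to 54773110, plus strand), had close group means and unequal Zfhx3-CKO libraries. It was at 17.3, 10.5 and 33.4 CPM in Zfhx3-CKO libraries, against 20.7, 21.9 and 19.1 CPM in the controls. Zfhx3-CKO libraries 1 and 2 lay below all controls and library 3 above them, and highest and lowest differed 3.17-fold, against 1.15-fold among controls. The means were 20.4 ± 11.7 CPM in Zfhx3-CKO and 20.6 ± 1.40 CPM in control LGE (SD, n = 3 each). The log2 fold change was -0.01 with a wide 95% interval of -0.80 to 0.77 (edgeR adjusted p 0.988). With Zfhx3-CKO libraries 1 and 3 left out, so that library 2 stands alone and is assumed to vary like the controls, Crabp1 was called lower (-0.96, adjusted p 0.00695). Without library 2 the log2 fold change was 0.30 and without library 3 it was -0.56, with adjusted p of 0.452 and 0.092. Its libraries ran in the order of the cortical excitatory sum (179, 46.8 and 277 CPM) within Zfhx3-CKO, which was also that of the D1 and D2 marker sums. Whether any of those cells carried Crabp1 was not tested.

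Per length, the order of the 9 genes in the Zfhx3-CKO libraries was Rxrg (27.3 ± 5.17 FPKM, SD, n = 3), Crabp1 (25.3 ± 14.4), Rarb (14.9 ± 1.40), Rara (8.22 ± 1.42), Rxra (8.17 ± 0.6165), Aldh1a3 (3.23 ± 0.916), Stra6 (2.34 ± 0.0195), Rarg (1.70 ± 0.319) and Stra6l (0.6725 ± 0.0524). The ranges of Rxrg and Crabp1, of Crabp1 and Rarb and of Rara and Rxra overlapped, and those of the other neighbours did not. In the control libraries the order was Rxrg (50.8 ± 6.23 FPKM), Rarb (32.3 ± 2.38), Crabp1 (25.65 ± 1.59), Rara (8.61 ± 0.546), Rxra (7.09 ± 0.330), Aldh1a3 (5.31 ± 0.796), Stra6 (4.935 ± 0.845), Stra6l (4.89 ± 0.740) and Rarg (1.795 ± 0.142). There, only the ranges of Aldh1a3 and Stra6 and of Stra6 and Stra6l overlapped. Stra6l thus stood above Rarg in every control library and below it in every Zfhx3-CKO library, while Rxrg kept the highest mean in both groups.

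**Figure D4:**
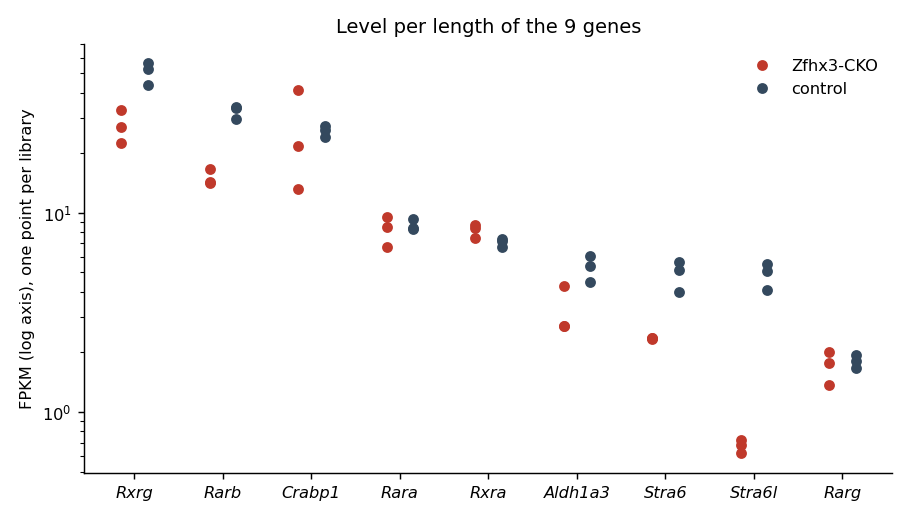
FPKM on a log axis of the 9 genes, 1 point per library, with Zfhx3-CKO in red left of control in dark grey at each gene; genes run from the highest to the lowest control mean. Stra6l lies at 0.618 to 0.722 FPKM in Zfhx3-CKO and at 4.08 to 5.52 FPKM in control libraries, the widest gap of the 9.

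Of 32 further genes of carriers, enzymes and receptor cofactors, 20 were tested, 1 fell, none rose and 19 did not pass, a share of calls near that of all genes (3.49% lower, 3.87% higher). The 12 left out by the filter averaged at most 0.579 CPM. The median of the 20 log2 fold changes was 0.04, against 0.00 over all genes, and 6 of the 20 had an unadjusted p under 0.05 (3 lower, 3 higher), where 25.6% of all genes had one. By DESeq2, 2 were lower and 2 higher, where 10.4% of all genes were called in either direction. The groups did not overlap for 3 of the 20 with Zfhx3-CKO lower and for 3 with it higher, near the 15.9% and 15.5% of all genes. The gene that fell was Ncoa1, a coactivator of nuclear receptors, with 129, 136.5 and 143 CPM in Zfhx3-CKO libraries, against 232, 213 and 172 CPM in the controls. The groups did not overlap (log2 fold change -0.59, edgeR adjusted p 0.0159), but the call was lost under the replicate block, and on leaving out either of control libraries 1 and 2 or the first Zfhx3-CKO library. In each of these 4 fits no gene of the list was lower.

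Of the more abundant cofactors and carriers, the following did not pass edgeR's test. Ncor1, a corepressor gene, was at 362 ± 17.7 CPM in Zfhx3-CKO and 334 ± 27.8 CPM in control LGE (SD, n = 3 each; log2 fold change 0.12, edgeR adjusted p 0.38). The coactivator gene Ncoa2 had a log2 fold change of 0.07 (edgeR adjusted p 0.718). That of the Mediator subunit gene Med1 was -0.15 (edgeR adjusted p 0.423). Fabp5, a gene for a fatty acid-binding protein that can carry retinoic acid, was uneven, with 94.7, 240.4 and 143.5 CPM in Zfhx3-CKO libraries against 196, 197 and 208 CPM in controls. Its log2 fold change was -0.33 (edgeR adjusted p 0.49), and it was called lower without Zfhx3-CKO library 2.

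Cyp26b1, Crabp2 and Dhrs3 were chosen after their values were seen. Besides Ncoa1 they are, together with Rdh5 and Ncoa3, the tested genes of the list whose groups do not overlap. Rdh5 and Ncoa3 had log2 fold changes of -0.34 and 0.06 (edgeR adjusted p 0.274 and 0.575). The untested Rbp4, Aldh1a1 and Bco1, with mean CPM of 0.207, 0.125 and 0.0899 over the 6 libraries, also had no overlap. Cyp26b1, which encodes an enzyme that breaks down retinoic acid, was at 9.41, 7.31 and 20.9 CPM in Zfhx3-CKO libraries, against 5.50, 4.86 and 3.59 CPM in the controls. Crabp2, for a protein that hands retinoic acid to the receptors, was at 3.53, 4.82 and 5.49 CPM in Zfhx3-CKO, against 2.15, 3.28 and 1.92 CPM in control LGE. Dhrs3, for a reductase that turns retinaldehyde back into retinol, was at 10.7, 9.16 and 7.79 CPM in Zfhx3-CKO, against 12.2, 12.7 and 16.9 CPM in controls. None of Cyp26b1, Crabp2 and Dhrs3 passed edgeR's test (log2 fold changes 1.43, 0.91 and -0.60, with adjusted p of 0.0584, 0.0759 and 0.0791). All 3 were called by DESeq2 and with no low-count filter.

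**Figure D5:**
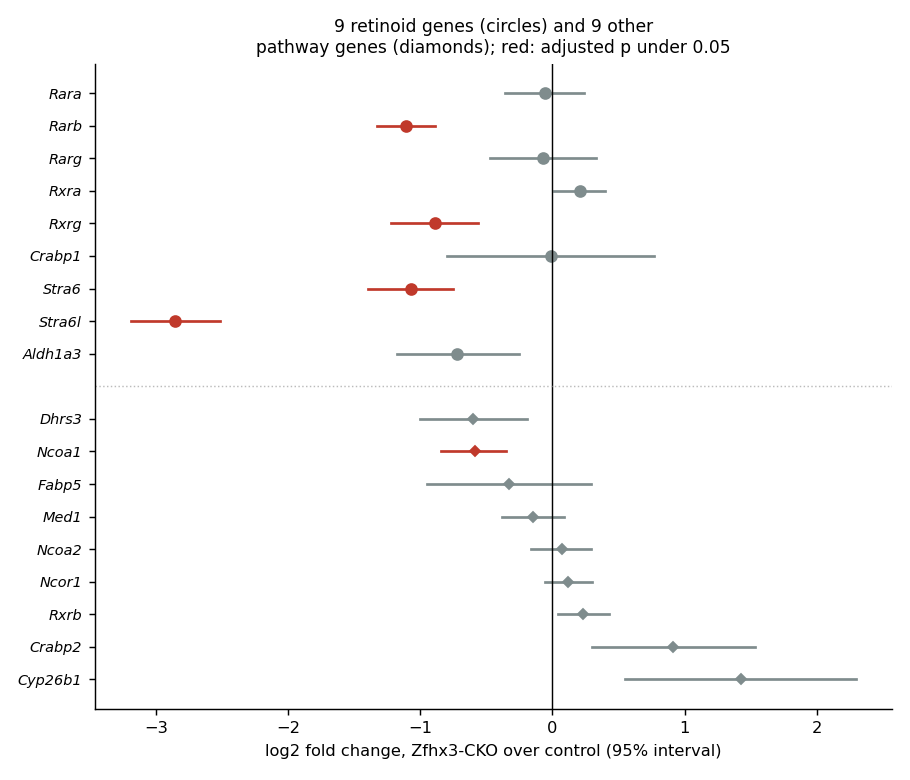
Log2 fold change, Zfhx3-CKO over control, with its 95% interval from edgeR's quasi-likelihood fit for the 9 members (circles, above) and 9 tested genes of the rest of the pathway that the text names (diamonds, below); red marks an adjusted p under 0.05. Stra6l, Rarb, Stra6, Rxrg and Ncoa1 are red, all lower, and Stra6l at -2.86 is the lowest.

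The genes whose profiles over the 6 libraries were nearest to those of the called members were also listed. Nearness is the root mean square distance of the log2 CPM, each taken from the control mean, so it follows mainly the difference between the groups. Nearest to Rarb were the forkhead factor genes Foxo1 (distance 0.0442) and Foxp1 (0.0745), then Egfem1, the pseudogene Tmem181c-ps and the mitochondrial ribosomal RNA mt-Rnr2 (0.102). Foxo1 was at 28.2 ± 2.66 CPM in Zfhx3-CKO and 61.4 ± 4.37 CPM in control LGE (SD, n = 3 each). Nearest to Stra6l were Ikzf1 (0.153), a zinc-finger factor gene at 14.97 ± 2.88 CPM in Zfhx3-CKO and 104 ± 2.60 CPM in control LGE, and Ebf1 (0.156), a factor gene and D1 marker at 32.25 ± 6.82 CPM in Zfhx3-CKO and 239.8 ± 27.7 CPM in control LGE. The scarce transcripts Cd2, H2-DMb2 and Fsd2 followed at 0.199 to 0.338.

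Among the 5 nearest to Rxrg were Ankrd55 (0.0594), Arid5b (0.096), the neurotrophin receptor gene Ntrk3 (0.105) and Xpr1 (0.108). Nearest to Stra6 were Dock5 (0.0963), the protocadherin gene Pcdhga8 (0.118), Tmem181c-ps (0.122), the ribosomal protein gene Rpl35 (0.128) and, as the fifth, Rarb (0.13). Rarb was the only member among the 5 nearest genes of another member.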

How the data were processed

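Total RNA of LGE was made into libraries with an Illumina TruSeq RNA kit, per the labels' protocols, a kit that keeps no strand information. HISAT2, StringTie, edgeR and bcl2fastq 2.17.1.14, and the builds GRCm38.p4 and mm10, are listed without roles in the submitters' processing notes. The deposited counts are raw whole numbers per gene, and the deposited FPKM values are the authors' length and depth scaling, per the file headers; for each member they imply 1 fixed length in all libraries (3034 bases for Rarb). The authors' log2 fold changes and p-values were copied as deposited; their test is not named there. The columns of the full table carry short names; for all 3726 genes of a shorter table with the sample titles, counts and FPKM were identical.

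Differences were tested with edgeR's quasi-likelihood test (edgeR 4.0.16, R 4.3.3) over all 16551 genes that filterByExpr kept at its default minimum count of 10, with TMM factors of 0.9921 to 1.008, group as the 1 factor, and Benjamini-Hochberg adjustment. CPM uses the TMM-scaled totals, errors are SD over 3 libraries, and 95% intervals come from the fit. Nothing states that replicates are separate animals, so the p-values speak for the scatter among these 6 libraries, possibly a technical one. Pairs of libraries within a group differed by more than sampling noise. Chi-square per gene was 3.15 to 8.87 among controls and 11.7 to 26.7 within Zfhx3-CKO, against 24.7 to 34.1 across groups. Zfhx3-CKO libraries 2 and 3 gave the 26.7, and so differed as much as some pairs across groups. The alternatives were a replicate block, DESeq2 1.42.0, RLE factors, library totals, no low-count filter, a filter of 5 CPM in 3 libraries, each library left out, Zfhx3-CKO libraries 1 and 3 left out together, and limma-trend (limma 3.58.1) on log2(FPKM + 1) and log2(FPKM + 0.1), kept to genes that reach 1 FPKM in 3 or more libraries.

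The members, lists and alternatives were chosen with earlier results of these data known. Named were all members, Zfhx3, called genes of the pathway list and its 6 most abundant others, and the 5 genes nearest to each called member among 16467 tested genes with a count in every library; names of predicted genes and clones were left out, and some genes that this rule names are not reported here. That requirement of a count in every library replaced an added 1 in the log2 CPM after a first listing had favoured genes at 0 in Zfhx3-CKO libraries. Promoters and gene models came from RefSeq (GRCm38.p6) and GENCODE vM21 (GRCm38).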

Additional observations from a re-analysis of the deposited data

How the results depend on the processing

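Rarb, Stra6 and Stra6l kept their calls under all 15 alternatives. Over the members and Zfhx3, 132 of 150 values kept direction and side of the threshold, 4 lost a call (all Rxrg), 7 gained one (Aldh1a3 and Zfhx3 in 3 settings each, Crabp1 in 1) and 7 turned direction, none of them a called gene. Left-out libraries gave log2 fold changes of -0.18 to 0.07 for Rara, -0.20 to 0.07 for Rarg and -0.56 to 0.30 for Crabp1, and Rara was at 0.15 without Zfhx3-CKO libraries 1 and 3. The number of members called lower was 3 to 5 and of members called higher 0 in every setting. With the replicate number as a block, 136 genes were lower and 176 higher, against 578 and 640, and 0 other pathway genes were lower; 3 members stayed called. No label states that the numbers pair the libraries. Deviations of same-numbered libraries correlated at -0.0651, -0.0953 and -0.317, and those of differently numbered ones at -0.222 to 0.261. With 3 libraries a group, these values cannot show whether the libraries were paired. DESeq2 called 1021 genes higher and no low-count filter 1075, each with 2 other pathway genes lower and 2 higher. Single left-out libraries gave 131 to 1014 lower and 156 to 1082 higher genes, and 0 to 2 lower and 0 to 3 higher pathway genes: 131 and 158 without control library 1, 144 and 156 without control library 2, 311 and 415 without control library 3, 180 and 221 with the first Zfhx3-CKO library left out, and 1014 and 1082 without Zfhx3-CKO library 3. Without Zfhx3-CKO libraries 1 and 3, 2 pathway genes were higher. The cause of these moves was not tested. The difference in share stayed at -19.3 to -13.6 percentage points for Rarb and -24.6 to -16.0 for Rxrg. Rarg had 106 to 161 counts a library and a log2 fold change with an SE of 0.18.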
